A study of Mus musculus with 58 samples.

Results

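Transcripts of 10 genes that end the light response of photoreceptors or adjust it through calcium (Grk1, Rcvrn, Rgs9, Rgs9bp, Gnb5, Guca1a, Guca1b, Gucy2e, Gucy2f and Slc24a1) were followed over the day in control and diabetic mouse retina. The genes were chosen by name, and all 10 were found among the 52459 gene symbols of the deposited count table. RNA of individual retinas was depleted of ribosomal RNA and sequenced from 58 libraries, 30 of control and 28 of diabetic mice. The diabetic mice were heterozygous Ins2Akita males on the C57BL/6 background, in which misfolded insulin damages the beta cells of the pancreas and raises blood glucose. The controls were male littermates without the mutation. All mice were 4 months old and were kept from birth under 12 h of light and 12 h of dark, and retinas of the night points were dissected under dim red light. Each genotype was sampled at ZT1, ZT5, ZT9, ZT13, ZT17 and ZT21, in hours after lights on, with 4 to 6 libraries per genotype and time point. Because light and dark alternated throughout, an effect of light on these transcripts and an effect of the circadian clock cannot be told apart.

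After light activates rhodopsin, transducin and phosphodiesterase, cyclic GMP falls and the cation channels of the outer segment close. Rhodopsin kinase then phosphorylates the pigment so that arrestin can bind it, and a complex of RGS9, the type 5 G protein beta subunit and the membrane anchor R9AP speeds GTP hydrolysis by transducin. The exchanger in the outer segment keeps extruding calcium while the channels are closed, and the fall in calcium releases rhodopsin kinase from recoverin and lets the guanylyl cyclase activating proteins turn on the cyclases that restore cyclic GMP.

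Libraries held 7773117 to 22147398 counted reads, with a median of 15406440, and the 10 genes together took 1.02% ± 0.0333 (SD, n = 30) of the control and 0.988% ± 0.0308 (SD, n = 28) of the diabetic reads. Sampling noise did not account for the difference within any of 113 replicate pairs, whose lowest chi-square over its degrees of freedom was 1.91. Ins2 had between 0 and 6 raw reads in both genotypes, so its transcript could not check the genotype labels. Rod markers were high in every library, as in retina, with a summed level of 465221 to 714058 normalized counts (median 567873) in control and 452411 to 649257 (median 538115) in diabetic libraries. The summed cone markers ranged from 10526 to 12779 and from 9981 to 12407, those of pigment epithelium from 218 to 2498 and from 198 to 2775, and those of blood from 0 to 119 and from 0 to 182, in control and diabetic libraries. Lens markers (Cryaa, Cryba1, Crygs and Mip) stood apart in 3 control libraries, at 31583 in ZT1 replicate 6, 25242 in ZT21 replicate 2 and 21701 in ZT17 replicate 5, against medians of 9.39 in control and 4.46 in diabetic libraries and a highest diabetic sum of 666. Where a call of the main tests or a count of members changed without these 3 libraries, both values are given.

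Per exon length, Rcvrn had the highest level of the 10 genes in control retinas, at 755 ± 133 reads per kilobase of exon scaled to library depth (RPKM, SD, n = 30), and Gucy2f the lowest, at 66.4 ± 7.63. Rcvrn was followed by Guca1a at 511 ± 67.9, Guca1b at 345 ± 42.4, Grk1 at 304 ± 17.2 and Slc24a1 at 301 ± 22.0. Below these came Gnb5 at 182 ± 11.1, Rgs9bp at 163 ± 8.39, Rgs9 at 136 ± 7.70 and Gucy2e at 93.2 ± 4.33. Grk1 and Slc24a1 differed by less than their spread, and so did Guca1b and Grk1. Each calcium sensor thus stood above the enzymes it acts on in level per length, Rcvrn above Grk1 and both Guca1a and Guca1b above Gucy2e and Gucy2f. In normalized counts, not divided by length, the control mean of Rcvrn (11438) lay below that of Grk1 (38649). Guca1a (6466) lay below Gucy2e (12419) and Gucy2f (7798), and Guca1b (12191) lay between them. The order per length thus rests on the exon lengths used, which count all annotated exons (1040 bases for Rcvrn and 8784 for Grk1). The diabetic libraries gave the order Rcvrn, Guca1a, Guca1b, Grk1, Slc24a1, Gnb5, Rgs9bp, Rgs9, Gucy2e and Gucy2f as well, from 684 ± 93.3 for Rcvrn to 61.7 ± 7.12 for Gucy2f (SD, n = 28).

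**Figure D1:**
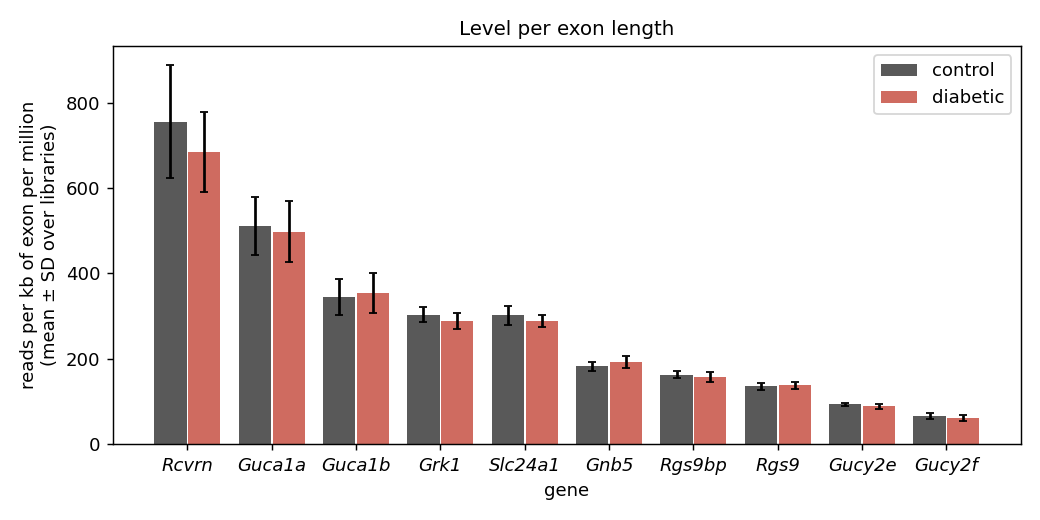
Level per exon length of the 10 genes (x axis) in RPKM (y axis, from 0), as means over 30 control (dark bars) and 28 diabetic (red bars) libraries with their SD. Rcvrn was highest at 755 and Gucy2f lowest at 66.4 in control retinas, and both genotypes gave the same order.

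The promoters of 7 of the 10 genes were read from RefSeq (GRCm38.p6), each a window of 300 bases around the annotated start. On either strand, the letters TAATCC, which the photoreceptor factor CRX binds, were present in 4 of the 7 (Gnb5, Gucy2e, Guca1a and Gucy2f), and in 7.06% of 32851 promoters of the same length. AGGTCA, bound by ROR receptors, was present in 3 of 7 (Gnb5, Guca1a and Gucy2f) and in 16.3% of all promoters, and TGCTGA, part of the NRL motif, in 2 of 7 (Grk1 and Rgs9) and in 19.5%. The E-box CACGTG (7.15% of all promoters) and the D-box TTATGTAA (0.938%) were found in 0 of the 7 windows. The matches in these 7 windows did not overlap each other, and a match is a description of the sequence and not a bound site. Shown here are Gnb5, which peaked at night, Guca1a, which peaked by day in diabetic retinas, and Gucy2f, which held 2 TAATCC matches, all 5′ to 3′ on the strand of the gene, with capitals for TAATCC or its reverse complement GGATTA (Gnb5 at chr9:75306038-75306337, plus strand; Guca1a at chr17:47400557-47400856 and Gucy2f at chrX:142196887-142197186, both minus strand).
Gnb5: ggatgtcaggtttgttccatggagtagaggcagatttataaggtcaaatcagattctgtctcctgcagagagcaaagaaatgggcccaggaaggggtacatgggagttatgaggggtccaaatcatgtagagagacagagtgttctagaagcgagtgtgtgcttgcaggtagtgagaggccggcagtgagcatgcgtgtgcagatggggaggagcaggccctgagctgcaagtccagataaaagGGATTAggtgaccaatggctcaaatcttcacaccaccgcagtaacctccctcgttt
Guca1a: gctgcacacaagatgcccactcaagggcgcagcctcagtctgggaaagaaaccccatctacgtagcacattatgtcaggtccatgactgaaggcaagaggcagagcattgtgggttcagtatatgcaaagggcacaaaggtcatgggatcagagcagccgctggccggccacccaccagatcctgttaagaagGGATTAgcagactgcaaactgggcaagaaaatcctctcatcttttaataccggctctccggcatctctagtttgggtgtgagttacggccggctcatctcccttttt
Gucy2f: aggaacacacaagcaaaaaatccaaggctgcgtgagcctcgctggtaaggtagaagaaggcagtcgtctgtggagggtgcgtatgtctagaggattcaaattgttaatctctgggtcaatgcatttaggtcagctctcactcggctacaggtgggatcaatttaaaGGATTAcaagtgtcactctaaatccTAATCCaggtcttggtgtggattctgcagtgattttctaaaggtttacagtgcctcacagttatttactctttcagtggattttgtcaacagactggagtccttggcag
Counted from the start, the match began at position -6 in Gnb5, at -57 in Guca1a, and at -59 and -84 in Gucy2f.

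The question of a daily rhythm was addressed within each genotype. A transcript was called rhythmic when its permutation p-value in the empirical JTK_CYCLE test was under 0.05, unadjusted, and its highest library was over 25% above its lowest. In control retinas 5 of the 10 genes were rhythmic, with Gnb5, Slc24a1, Grk1 and Rcvrn peaking in the dark and Guca1b in the light. By the same rule 21.8% of 19086 expressed genes were rhythmic, and with p-values adjusted over all of them 2 of the 10 (Gnb5 and Rcvrn) remained beside 8.25% of all genes. In diabetic retinas 6 of the 10 were rhythmic, with Gnb5, Rcvrn and Gucy2f peaking in the dark and Guca1a and Guca1b in the light. The other was Rgs9bp, whose fitted acrophase of ZT11.6 ± 1.20 h (SE) lay within its SE of lights off. Its highest mean was at ZT13, in the dark. The share over all 19145 expressed genes was 23.9%, and after adjustment 4 of the 10 (Gnb5, Rcvrn, Guca1a and Guca1b) passed beside 9.79% of all genes. Gnb5, Rcvrn and Guca1b were rhythmic in both genotypes. The control count rested on control ZT5 replicate 1, without which 3 genes were called beside 20.3% of all expressed genes, since Grk1 dropped to a fold of 1.22 and Slc24a1 to a permutation p of 0.0520 in the JTK_CYCLE test. Without the 3 libraries rich in lens RNA 4 of the 5 control calls stood beside 20.2% of all expressed genes, and Slc24a1 was lost at a permutation p of 0.0536 in that test.

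Markers of other cells differed between times of day as well. The summed bipolar cell markers ran from 17007 to 20426 normalized counts at ZT9 and from 23045 to 25400 at ZT17 in control libraries, and from 17962 to 19777 and from 21607 to 24225 in diabetic ones, without overlap. Pigment epithelium markers ran from 319 to 1106 at ZT5 and from 1448 to 2498 at ZT21 in control libraries, and from 198 to 259 and from 1310 to 2240 in diabetic ones, also without overlap. This pair of times is another than that of the bipolar cell markers. At ZT9 and ZT17 the pigment epithelium sums overlapped in control libraries (1165 to 1627 and 878 to 2035). They also overlapped in diabetic ones (636 to 1318 and 659 to 1474). The summed rod markers overlapped between ZT9 (510284 to 674770 in control and 484082 to 638247 in diabetic libraries) and ZT17 (540522 to 700476 and 505323 to 608255). The part of these markers in the rhythms of the 10 genes was not tested.

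**Figure D2:**
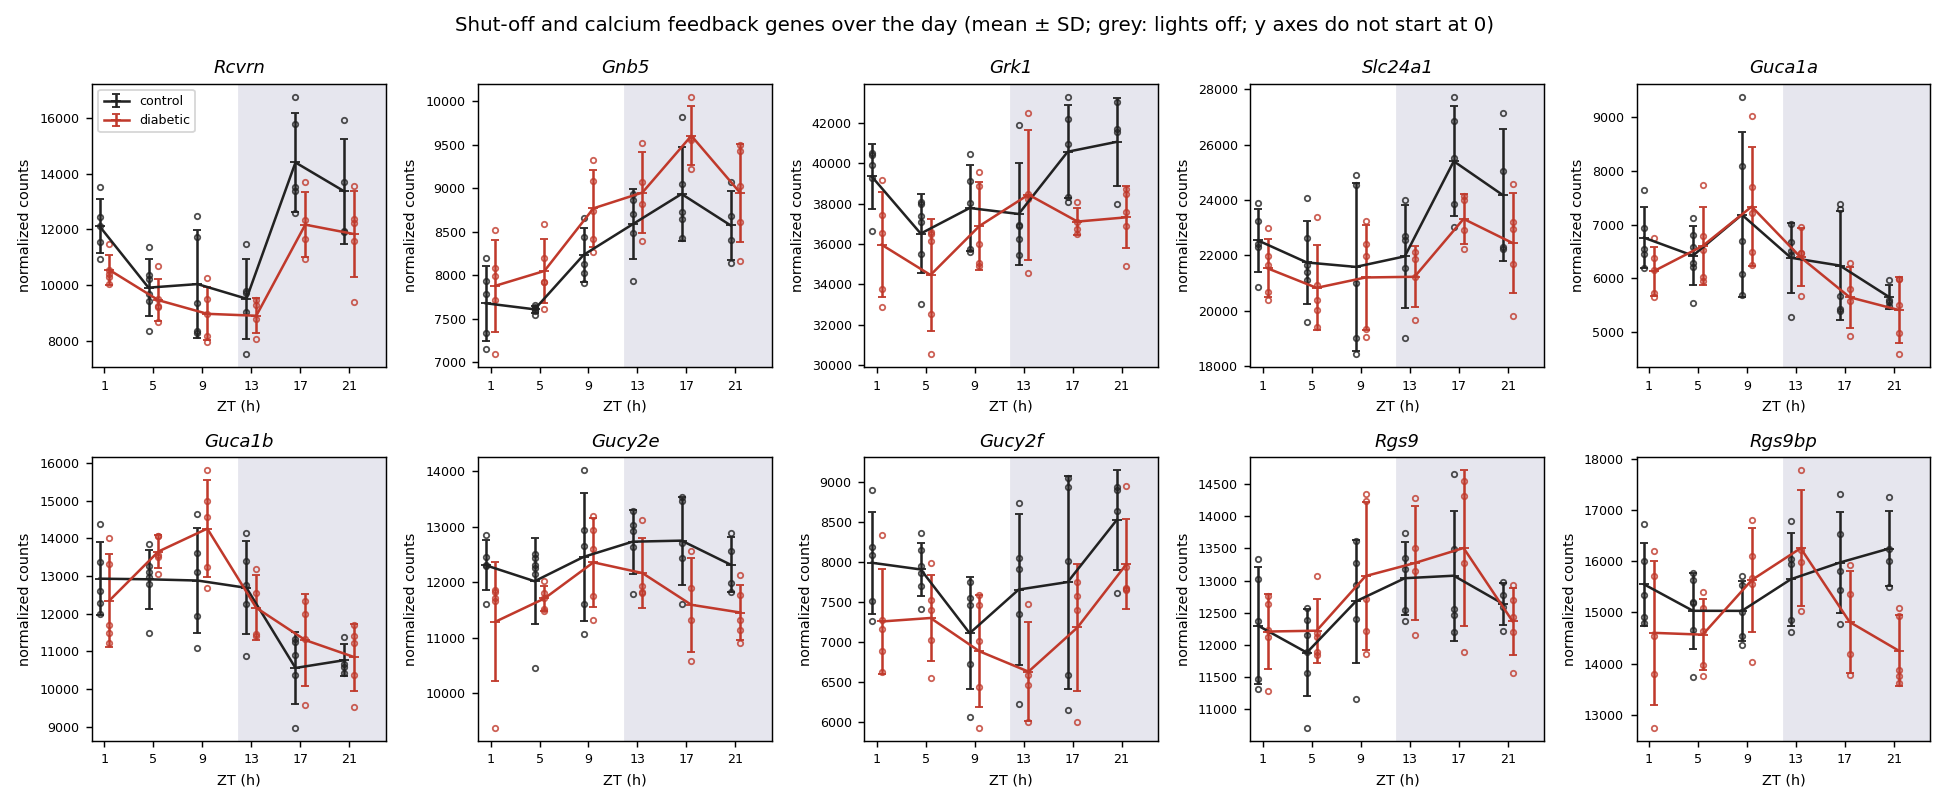
Normalized counts (y axes, not starting at 0) of the 10 genes at 6 times of day (x axes, ZT in h), with each library as a circle and the mean with SD per group of 4 to 6 libraries, in control (dark) and diabetic (red) retinas, and lights off in grey. Rcvrn rose between ZT13 and ZT17 in both genotypes, Gnb5 was highest at ZT17, Guca1b was lowest at ZT17 or ZT21, and the control and diabetic means of Rgs9bp lay furthest apart at ZT21.

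Recoverin (Rcvrn, chr11:67695326-67703333, plus strand) is the calcium sensor that holds rhodopsin kinase in the dark, and it had the largest amplitude of the 10 genes in both genotypes. Its 5 control libraries of ZT13 held 7517, 9043, 9703, 9775 and 11490 normalized counts, and those of ZT17 held 12574, 13369, 13527, 15774 and 16775. In diabetic retinas the 4 libraries of ZT13 held 8063, 8759, 9296 and 9453 and those of ZT17 held 10946, 11660, 12348 and 13714. In both genotypes every library of ZT17 was thus above every library of ZT13, the time point just after lights off. The fitted amplitude was 20.7% ± 3.84 (SE) of the mean in control and 16.1% ± 2.74 in diabetic retinas, with acrophases at ZT20.1 ± 0.684 and ZT20.3 ± 0.672 h. The unadjusted JTK_CYCLE p-values were 4.6e-05 and 1.5e-05, and the adjusted ones 0.00307 and 0.00122. The gene Glp2r lies over Rcvrn on the other strand with 0 shared exon bases and a mean of 30.8 normalized counts.

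Rhodopsin kinase (Grk1, chr8:13405081-13421951, plus strand), the target of recoverin, had the highest counts of the 10 genes and a small rhythm. At ZT21 the 4 control libraries held 37981, 41543, 41710 and 43044 normalized counts, and at ZT5 the 6 control libraries ranged from 33033 through a median of 37245 to 38098. Only the lowest library of ZT21 fell within the range of ZT5. The control amplitude was 5.66% ± 1.43 (SE) with an acrophase at ZT19.8 ± 0.942 h and an unadjusted JTK_CYCLE p of 0.0147 (adjusted p = 0.108). The diabetic amplitude was 4.16% ± 1.70 with an acrophase at ZT15.6 ± 1.505 h, and the JTK_CYCLE permutation p of 0.158 did not pass.

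Of the GTPase accelerating complex, Gnb5 (chr9:75306288-75345876, plus strand), the beta subunit that also partners other RGS proteins in retinal neurons, was rhythmic in both genotypes. Its 6 control libraries of ZT5 lay between 7538 and 7653 normalized counts with a median of 7613. The 5 control libraries of ZT17 held 8426, 8650, 8725, 9048 and 9819, and the 4 diabetic ones 9223, 9556, 9579 and 10054. Each library of ZT17 was above every library of ZT5 in its genotype, since the diabetic libraries of ZT5 reached only 8588. The amplitude was 8.09% ± 1.14 (SE) in control and 8.95% ± 1.51 in diabetic retinas, the acrophase ZT16.0 ± 0.571 and ZT15.6 ± 0.624 h, and the adjusted JTK_CYCLE p 7.02e-04 and 0.00183. An antisense gene, Gm19531, shares 248 exon bases with Gnb5, and because a strand setting of the read counting was not given in the sources used here, reads of the 2 genes may not be told apart.

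The other members of the complex were less clear. Rgs9 (chr11:109225355-109298129, minus strand), which carries the GTPase accelerating domain, was not called in either genotype, with amplitudes of 4.54% ± 1.505 (SE) and 5.53% ± 1.71 and JTK_CYCLE p-values of 0.0661 and 0.0544 in control and diabetic retinas. Rgs9bp (chr7:35578993-35585582, minus strand), which encodes the anchor R9AP, was not called in control (permutation p = 0.0546, amplitude 3.95% ± 1.27, acrophase ZT19.0 ± 1.22 h). In diabetic retinas it was called with a permutation p of 0.0273 in the JTK_CYCLE test (adjusted p = 0.142), an amplitude of 5.73% ± 1.79 and an acrophase of ZT11.6 ± 1.20 h. That call was lost when any of 8 diabetic libraries (replicates 1, 3 and 5 of ZT9, replicates 1, 3 and 5 of ZT13, replicates 3 and 4 of ZT21) was left out, with p from 0.0549 to 0.0889.

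The guanylyl cyclase activating proteins, Guca1a (chr17:47394558-47400584, minus strand) and Guca1b (chr17:47385393-47392967, plus strand), sense low calcium, and their genes lie tail to tail with 1590 bases between them. The fitted acrophase of both lay in the light and that of recoverin in the dark, although Guca1a was not called rhythmic in control retinas. The 4 control libraries of ZT21 held 10419, 10584, 10663 and 11389 normalized counts of Guca1b, and the 5 of ZT1 held 11988, 12294, 12597, 13364 and 14387. The control libraries of ZT9 ranged from 11094 to 14645 and overlapped those of ZT21. In diabetic retinas Guca1b ranged from 9526 to 11710 at ZT21 and from 12682 to 15804 at ZT9, without overlap. Its amplitude was 10.4% ± 2.34 (SE) in control and 13.5% ± 2.15 in diabetic retinas, with acrophases at ZT6.63 ± 0.862 and ZT7.30 ± 0.616 h. The unadjusted JTK_CYCLE p-values were 0.00528 and 4.2e-05, and the adjusted ones 0.0561 and 0.00252.

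Guca1a had its acrophase at ZT7.83 ± 1.85 (SE) h in control and ZT8.14 ± 0.828 h in diabetic retinas. The 5 diabetic libraries of ZT9 held 6251, 6493, 7210, 7691 and 9020 normalized counts and those of ZT21 held 4597, 4996, 5507, 5984 and 5991, so these groups did not overlap. The control libraries of ZT9 spread from 5689 to 9377 and those of ZT21 from 5486 to 5978, with overlap. It was called in diabetic retinas, with an amplitude of 13.8% ± 2.91 and an adjusted JTK_CYCLE p of 0.00776, and not in control, with 7.20% ± 3.60 and an unadjusted p of 0.291. The difference between the genotypes was itself tested and did not pass, with an unadjusted p of 0.303 in edgeR's quasi-likelihood test of the interaction.

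Of the cyclases that these proteins activate, Gucy2e (chr11:69218117-69237036, minus strand), the main cyclase of photoreceptors, was not called in either genotype, with amplitudes of 2.73% ± 1.46 (SE) and 4.39% ± 1.56 and JTK_CYCLE p-values of 0.195 and 0.133. Gucy2f (chrX:142081160-142196931, minus strand), the second cyclase of these cells, had amplitudes of 6.43% ± 2.71 in control and 6.75% ± 2.39 in diabetic retinas and acrophases at ZT22.2 ± 1.52 and ZT22.6 ± 1.39 h. It was called in diabetic (permutation p = 0.0346 in the JTK_CYCLE test, adjusted p = 0.165) and not in control retinas (p = 0.123). The diabetic call of Gucy2f was lost without any of 8 libraries (replicates 1, 4 and 5 of ZT13 and each of the 5 replicates of ZT21), with p from 0.0516 to 0.0766.

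Slc24a1 (chr9:64922861-64951607, minus strand), the sodium, calcium and potassium exchanger of rods, was highest at ZT17 in both genotypes. The 5 control libraries of ZT17 ranged from 23016 to 27733 normalized counts and those of ZT9 from 18440 to 24909, and the 2 groups overlapped. The control amplitude was 7.86% ± 2.29 (SE) with an acrophase at ZT19.1 ± 1.11 h (JTK_CYCLE permutation p = 0.0365, adjusted p = 0.184), and the diabetic one 4.83% ± 1.75 at ZT18.5 ± 1.397 h (permutation p = 0.1003, not called). The control call was lost without any of 11 libraries (replicates 1, 2 and 3 of ZT5, 1, 2 and 3 of ZT9, 1, 3 and 5 of ZT17, 3 and 4 of ZT21), with p from 0.0520 to 0.0811.

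**Figure D3:**
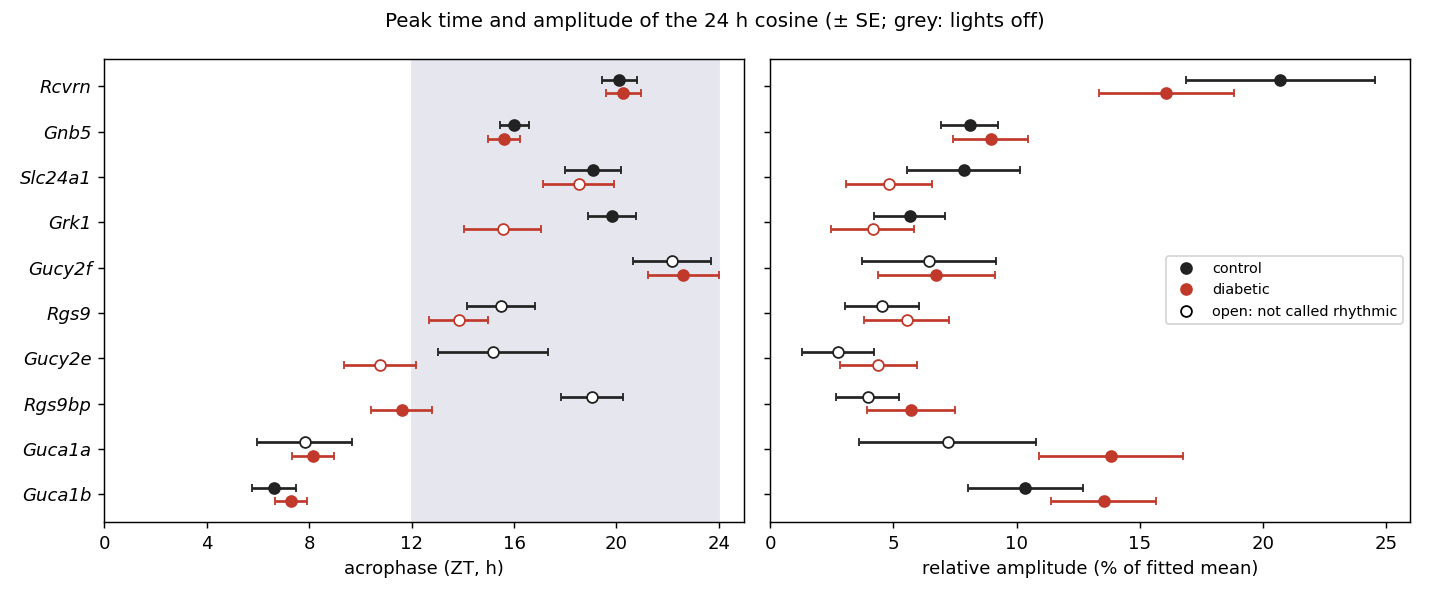
Acrophase (left, ZT in h, lights off in grey) and relative amplitude (right, percent of the fitted mean) of the 24 h cosine of each gene (y axis), with SE, in control (dark) and diabetic (red) retinas, with filled symbols for genes called rhythmic. Guca1b peaked in the light in both genotypes and Guca1a in diabetic retinas, where it was called, Rcvrn had the largest amplitudes at 20.7% and 16.1%, and the acrophases of Rgs9bp lay furthest apart (diabetic minus control -7.44 h).

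Whether the rhythm itself differed between the genotypes was tested for each gene as the interaction of genotype with a 24 h cosine. The acrophase of Rgs9bp was earlier in diabetic than in control retinas by the largest step of the 10 (diabetic minus control -7.44 ± 1.71 h, SE), that of Grk1 differed by -4.25 ± 1.78 h and that of Gucy2e by -4.43 ± 2.56 h. The other 7 differences ranged from -1.65 ± 1.76 h for Rgs9 to 0.667 ± 1.06 h for Guca1b. None of the 10 genes passed after adjustment in edgeR's quasi-likelihood test, and none of all 19120 genes did (0%). At an unadjusted p under 0.05, 1 of the 10 passed beside 3.44% of all genes. This was Rgs9bp with an unadjusted p of 0.00484 and an adjusted p of 0.9998 in edgeR. DESeq2 also called 0 of the 10 after adjustment and 1 of the 10 unadjusted, beside 3.29% of all genes unadjusted. A rank-based regression, run on the 6470 genes rhythmic in either genotype and so on 8 of the 10 (not Rgs9 and Gucy2e), passed 0 genes after adjustment. Unadjusted it passed 1 of the 8, Rgs9bp, beside 8.75% of the genes it tested. The acrophase of Gucy2e in control, where its amplitude was 2.73% ± 1.46 (SE), was only loosely fixed by these libraries, with an SE of 2.15 h. Rgs9bp was not called rhythmic in control retinas, Grk1 not in diabetic ones and Gucy2e in neither. The acrophase difference of each of these genes thus uses an acrophase from a genotype without a call.

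The level of Rgs9bp was set side by side at ZT13 and ZT21. At ZT13 the 4 diabetic libraries held 15036, 15979, 16225 and 17776 normalized counts, within and above the control range of 14613 to 16793 (log2 fold change 0.06, unadjusted p = 0.346 and adjusted p = 0.9999 in edgeR). At ZT21 the 5 diabetic libraries held 13624, 13752, 13879, 14935 and 15078, and the 4 control libraries 15500, 15999, 16230 and 17254. The groups of ZT21 did not overlap, with means of 14254 ± 695 (SD) and 16246 ± 738, and the contrast did not pass after adjustment (unadjusted p = 0.00269, adjusted p = 0.553 in edgeR). Without the control library of ZT21 rich in lens RNA and the 2 others like it the adjusted p of this contrast in edgeR was 0.849.

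The genotypes were next compared in level, over all time points and at each of them. Over all time points 7 of the 10 genes were lower and 3 higher in diabetic retinas, with a median log2 fold change of -0.06 beside 0.00 for all genes, and the values ran from -0.15 to 0.07. None of the 10 passed after adjustment in edgeR's quasi-likelihood test, where 2.99% of 19120 genes did. At an unadjusted p under 0.05, 6 of the 10 passed, 5 lower and 1 higher, beside 15.5% of all genes. DESeq2 called 1 of the 10 after adjustment beside 3.5% of all genes, and 7 unadjusted beside 15.5%. Without the 3 control libraries rich in lens RNA 4 of the 10 passed unadjusted in edgeR (Grk1, Gnb5, Gucy2e and Gucy2f) beside 14.5% of all genes, while Rcvrn (unadjusted p = 0.0562 in edgeR) and Slc24a1 (0.0717) did not. A gene that falls this little cannot be told apart, in whole retinas, from fewer cells of its type or less RNA per cell.

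**Figure D4:**
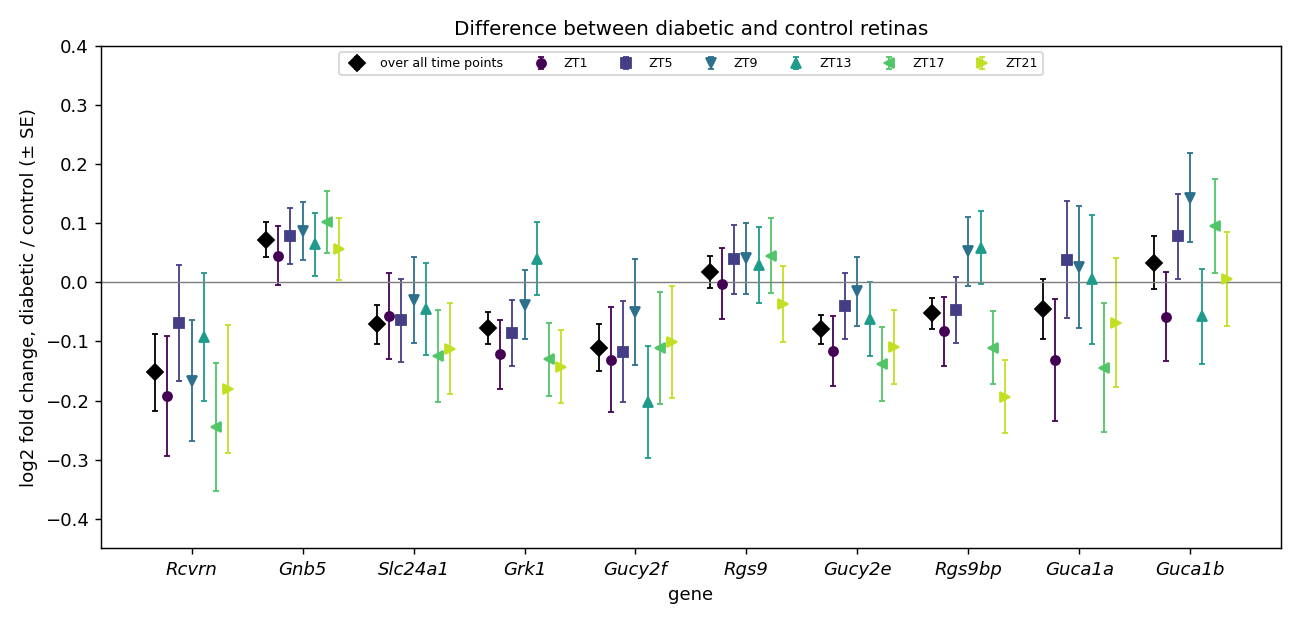
Log2 fold change of diabetic over control retinas (y axis, with SE) for each gene (x axis), over all time points (black diamonds) and at each of 6 times of day (coloured symbols), from edgeR. Most values lay within 0.2 of 0, and over all time points they ran from -0.15 for Rcvrn to 0.07 for Gnb5.

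Gucy2e had the smallest p-value. It ranged from 10451 through a median of 12443 to 14014 normalized counts in control and from 9381 through 11782 to 13199 in diabetic libraries, so that the genotypes overlapped widely. Its log2 fold change was -0.08 ± 0.0250 (SE), with an unadjusted p of 0.00226 and an adjusted p of 0.0648 in edgeR and an adjusted p of 0.0421 in DESeq2. Over 65 alternatives the adjusted p of Gucy2e ran from 0.0308 to 0.141. It passed when control ZT5 replicate 1 (adjusted p = 0.0308 in edgeR), control ZT9 replicate 3 (0.0421), diabetic ZT9 replicate 3 (0.0381), diabetic ZT9 replicate 5 (0.0472) or diabetic ZT13 replicate 5 (0.0411) was left out.

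The other genes lower in diabetic retinas at an unadjusted p under 0.05 were Grk1, Gucy2f, Rcvrn and Slc24a1. Grk1 had a log2 fold change of -0.08 ± 0.0269 (SE), from a control mean of 38649 ± 2565 (SD) to a diabetic mean of 36627 ± 2450 normalized counts (adjusted p = 0.106 in edgeR). Gucy2f was at -0.11 ± 0.0394 (adjusted p = 0.120 in edgeR), Rcvrn at -0.15 ± 0.0649 (adjusted p = 0.222 in edgeR) and Slc24a1 at -0.07 ± 0.0336 (adjusted p = 0.284 in edgeR). The largest of these differences, that of Rcvrn, was -10.0% of the level, and the genotypes overlapped in range for each of them. Gnb5 was the gene that was higher, at 0.07 ± 0.0298, from a control mean of 8236 ± 612 (SD) to a diabetic mean of 8657 ± 720 (adjusted p = 0.205 in edgeR). For the remaining members the 95% intervals, from the t distribution of the test, were -0.04 to 0.07 for Rgs9, -0.11 to 0.000308 for Rgs9bp, -0.15 to 0.06 for Guca1a and -0.06 to 0.12 for Guca1b. With the mean of the 6 time points contrasted in the fit of 12 groups, which takes the time of day out of the spread, 4 of the 10 passed (adjusted p of 0.0206 for Rcvrn, 0.0302 for Gnb5, 0.0445 for Gucy2e and 0.0453 for Grk1 in edgeR), beside 4.64% of all genes. Without the 3 libraries rich in lens RNA that fit passed 1 of the 10, Rcvrn (adjusted p = 0.0253 in edgeR), beside 3.53% of all genes, and Gnb5 (0.0526), Gucy2e (0.0593) and Grk1 (0.0965) did not pass.

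Markers of rods, and of some other cells, moved with these values. From control to diabetic libraries the median summed level went from 567873 to 538115 normalized counts for rods, from 11689 to 10969 for cones, from 21228 to 20155 for bipolar cells and from 1200 to 842 for pigment epithelium. It went from 40550 to 40645 for Muller glia, from 9606 to 9621 for amacrine cells and from 6361 to 6510 for ganglion cells. For pigment epithelium the diabetic median was the higher at ZT13 (1503 against 1294 in control) and ZT21 (1739 against 1677). It was the lower at ZT1 (539 against 599), ZT5 (245 against 623), ZT9 (927 against 1327) and ZT17 (1075 against 1298). The mean log2 level of the 6 rod markers was 0.07 lower in diabetic libraries (14.91 ± 0.101 against 14.98 ± 0.0793, SD), and relative to them the mean of the 10 genes differed by 0.02 between the genotypes. On that scale Gnb5 differed by 0.14, Guca1b by 0.10 and Rgs9 by 0.09, Rcvrn by -0.07 and Gucy2f by -0.04, and the other 5 lay between -0.01 and 0.02. The part of these markers in the differences of level was not tested. Without the 3 control libraries rich in lens RNA the test with 1 group per genotype called none of the 10 after adjustment, beside 2.24% of all genes, and Gucy2e was at -0.08 (adjusted p = 0.0846 in edgeR).

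At single time points no member passed after adjustment in edgeR, which called 0.0105% of 19120 genes at ZT1. At ZT17 it called 0.167% of all genes, at ZT5 0.0209%, at ZT9 0.00523%, and at both ZT13 and ZT21 0%. At an unadjusted p under 0.05 edgeR passed 3 of the 10 genes at ZT17 beside 8.82% of all genes, 2 at ZT21 beside 4.67%, 1 at ZT1 beside 5.5% and 1 at ZT13 beside 4.46%, all lower in diabetic retinas. It passed 0 of the 10 at ZT5 beside 6.15% and 0 at ZT9 beside 4.49%. DESeq2 called 0 of the 10 after adjustment at each of the 6, beside 0.455% of all genes at ZT17, 0.126% at ZT5, 0.0314% at ZT1, 0.0209% at ZT9, 0.0105% at ZT21 and 0.00523% at ZT13. The unadjusted passes were Grk1 at ZT1, ZT17 and ZT21, Gucy2f at ZT13, Rcvrn and Gucy2e at ZT17 and Rgs9bp at ZT21. Without the 3 control libraries rich in lens RNA the 3 passes of Grk1 were lost (unadjusted p of 0.0539 at ZT1, 0.127 at ZT17 and 0.0571 at ZT21 in edgeR), and the other 4 passes stood. The largest was Rcvrn at ZT17 at -0.25 ± 0.109 (SE, adjusted p = 0.479 in edgeR), followed by Gucy2f at ZT13 at -0.20 ± 0.0948 and Rgs9bp at ZT21 at -0.19 ± 0.0615 (unadjusted p = 0.00269, adjusted p = 0.553 in edgeR). Grk1 was at -0.12 at ZT1, -0.13 at ZT17 and -0.14 at ZT21, and Gucy2e at -0.14 at ZT17. The groups did not overlap for Grk1 at ZT17, where the 4 diabetic libraries held 36513, 36770, 37089 and 38090 normalized counts and the 5 control libraries 38103, 38318, 40973, 42182 and 43320, the highest of which is rich in lens RNA.

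Of 23 other genes of phototransduction, all were lower in diabetic retinas over all time points, with a median log2 fold change of -0.12 beside the -0.06 of the 10 shut-off and feedback genes. After adjustment 7 of the 23 passed in edgeR beside 2.99% of all genes, and 4 of the 23 without the 3 libraries rich in lens RNA beside 2.24%. These 4, with their values over all libraries, were the cone phosphodiesterase inhibitory subunit Pde6h (-0.14 ± 0.0284, SE, adjusted p = 0.00173 in edgeR), the rod transducin gamma subunit Gngt1 (-0.16 ± 0.0338, adjusted p = 0.00270 in edgeR), the cone transducin beta subunit Gnb3 (-0.16 ± 0.0356, adjusted p = 0.00390 in edgeR) and the cone transducin alpha subunit Gnat2 (-0.12 ± 0.0283, adjusted p = 0.00760 in edgeR). At single time points and for differential rhythmicity edgeR called 0 of the 23 after adjustment. DESeq2 called 9 of the 23 over all time points after adjustment, beside 3.5% of all genes. It called 1 at ZT1 beside 0.0314% and 1 at ZT5 beside 0.126%, and 0 at the other time points and for differential rhythmicity. The rhythm test called 10 of these 23 in control libraries and 11 in diabetic ones, beside the 21.8% and 23.9% of all expressed genes. The smallest p-values in control were those of cone arrestin Arr3 (acrophase ZT8.77 ± 0.343 h, SE, amplitude 29.6% ± 2.89), phosducin Pdc (ZT17.4 ± 0.604 h, 16.8% ± 2.55), the cone opsin Opn1sw (ZT21.2 ± 0.845 h, 13.1% ± 3.06) and the cone channel subunit Cnga3 (ZT20.1 ± 0.964 h, 13.8% ± 3.59). Rod arrestin Sag, which binds the pigment that rhodopsin kinase has phosphorylated, was among the 4 smallest p-values in diabetic retinas and peaked at ZT8.67 ± 0.752 h in control and ZT8.03 ± 0.385 h in diabetic retinas, in the light.

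The mean profile of the 10 genes over the 12 groups was compared with 11237 genes of at least 100 normalized counts on average, as a description, over groups that share their libraries with the profile. The genes most like it were 2810428I15Rik (Pearson r = 0.951 over 12 group means), Rps9 (0.949) and Rbp3 (0.948). Among the 10 themselves, each of which is part of the mean, Grk1 (0.862) and Slc24a1 (0.807) followed it most closely, and Guca1a (0.0146) and Guca1b (-0.415) least.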

How the data were processed

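RNA-seq of 58 single retinas was analysed from a table of read counts per gene symbol. The authors mapped the reads with STAR (2.7.4a) to GRCm38.p5, took genes from Gencode M15 and made the deposited counts with HTSeq-count (0.11.1), neither normalized nor filtered, after depletion of ribosomal RNA. A strand setting was not given in the sources used here. Titles gave the genotype, time and replicate number of every column.

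Counts were divided by median-of-ratios size factors, and a gene was expressed above a median of 4 normalized counts. Rhythm was scored by a re-implementation of empirical JTK_CYCLE, a permutation test, with 30 waveforms and 1000000 shuffled series (200000 with libraries left out). Acrophase and amplitude came from a 24 h cosine fitted by least squares. Genotypes were compared with edgeR (4.0.16) quasi-likelihood tests on TMM-scaled counts, with 1 group per genotype over all time points, with 12 groups for single time points, and with the interaction of genotype and cosine for differential rhythmicity, with Benjamini-Hochberg adjustment over 19120 genes. Standard errors of log2 fold changes were taken from the F statistic. DESeq2 (1.42.0), in R 4.3.3, was an alternative, beside other scalings, filters and tests, a block for replicate numbers, and libraries or time points left out. Python 3.11.15 with numpy 2.4.6, scipy 1.17.1 and pandas 2.3.3 was used. Rhythm and genotype tests were tested on simulated data. Exon lengths came from Gencode M21, a later release than that of the counts.

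The genes and gene lists were chosen with earlier results of these data known. All 10 genes are described. Of 23 other phototransduction genes at most 4 per comparison, those with the smallest p-values, were named, and the 3 genes with the profile most like the mean of the 10.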

Additional observations from a re-analysis of the deposited data

Results flagged for a closer look

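In 6 of 120 combinations of gene and group, the highest or lowest library lay far from the others by Dixon's criterion, and chance gives such a library in about 1 in 20 groups. In normalized counts, Grk1 was at 41917 in control ZT13 replicate 3, where the other libraries of the group held 35466 to 36937. Gucy2e was at 10451 in control ZT5 replicate 1 against 12140 to 12504, at 9381 in diabetic ZT1 replicate 5 against 11668 to 11852, and at 13115 in diabetic ZT13 replicate 5 against 11798 to 11924. Rgs9 was at 13073 in diabetic ZT5 replicate 4 against 11844 to 12183, and Gucy2f at 8948 in diabetic ZT21 replicate 2 against 7641 to 7928.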

How the results depend on the processing

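No log2 fold change of the 10 genes over all time points, and none with an unadjusted p under 0.05 at a single time point, changed sign under an alternative or left-out library. Of 4430 such values in all, 26 had another sign, each at a single time point and in a contrast within 0.0407 of 0, among them Guca1b at ZT21 (0.00589 to -0.00186) and Guca1a at ZT13 (0.00534 to -0.0173) with the replicate block. The number of the 10 genes rhythmic in control, 5, beside 21.8% of all genes, was 1 with the fold taken between means of time points (13.3% of all genes), 2 with p-values adjusted over all expressed genes (8.25%), 2 with no filter on low counts and adjustment over all genes with a read (3.32%), 3 without the libraries of ZT5 (15.9%), 2 without those of ZT21 (18.9%), and 4 without the 3 libraries rich in lens RNA (20.2%), an alternative chosen after seeing the data. In diabetic retinas it was 3, in place of 6 beside 23.9%, with the fold between means of time points (14.2%). It was 4 with p-values adjusted over all expressed genes (9.79%). With no filter on low counts and adjustment over all genes with a read it was also 4 (4.12%). Without the libraries of ZT13 it was 4 (21.1%), without those of ZT21 4 (16.4%) and without those of ZT9 5 (21.1%). In control, leaving out ZT17 gave 4 (14.1%) and leaving out ZT1 gave 6 (21.8%). The stricter fold and the adjusted p pass fewer genes by construction, and the cause of the other changes was not tested. With single libraries left out the count ran from 3 to 7 in control, beside 19% to 26.6% of all expressed genes, and from 4 to 8 in diabetic retinas, beside 20.7% to 25.8%.

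Over all time points 1 member was called with DESeq2 (Gucy2e) and 4 with the mean of 6 time points in the fit of 12 groups, 1 with that fit and without the 3 libraries rich in lens RNA, in place of 0, and 0 to 1 with single libraries left out. At each single time point and for differential rhythmicity the count was 0 in the main tests and under every alternative and left-out library run, so it cannot show stability. Genes not called in the main rhythm test passed without some libraries: Rgs9bp in control without any of 16 of 30, Rgs9 without 5 in control and 9 in diabetic retinas, Gucy2f without 2 in control, and Slc24a1 without 4 in diabetic retinas.

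Replicate numbers were to count as pairing the libraries if every same-numbered pair of the 2 genotypes correlated above 0.1, which 20 of 26 did. Same-numbered libraries were still more alike on average (0.285, against -0.0614 for different numbers), and 16 of 26 control libraries correlated best with their own number, a hint of pairing from the data and not from the design. With a replicate block in edgeR the counts of members stayed at 0 in every contrast, while over all genes they went from 572 to 509 over all time points and from 32 to 60 at ZT17. At an unadjusted p under 0.05 the block took the members from 6 to 7 over all time points (Rgs9bp added, edgeR p of 0.0294), beside 15.4% of all genes, and from 3 to 4 at ZT17 (Slc24a1 added, 0.0270), beside 11.2%. The edgeR cosine test with replicate block called 8 members in control beside 27% of all genes and 8 in diabetic retinas beside 27.9%, against 7 beside 25% and 7 beside 26.2% without it. Depth sets little limit here, since the lowest normalized count of a member in any library was 4597.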

Other observations

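Ratios of the level per exon length were taken within each library between genes whose products act together or are paralogs. The ratio of Rcvrn to Grk1, inhibitor to kinase, averaged 2.15 ± 0.394 (SD, n = 5) at ZT13 and 3.01 ± 0.453 (n = 5) at ZT17 in control, and 1.97 ± 0.294 (n = 4) and 2.77 ± 0.296 (n = 4) in diabetic retinas. In control its libraries ran from 1.75 to 2.74 at ZT13 and from 2.52 to 3.50 at ZT17, and in diabetic retinas from 1.60 to 2.31 and from 2.49 to 3.15, without overlap there. The ratio of Rgs9bp to Rgs9, anchor to enzyme, averaged 1.246 ± 0.0291 (n = 4) in control and 1.12 ± 0.0637 (n = 5) in diabetic retinas at ZT21, and its libraries did not overlap there, with the lowest control value at 1.23 and the highest diabetic one at 1.19. At the other 5 time points the ratio overlapped between the genotypes, with diabetic means above control at ZT9 (1.16 and 1.15) and ZT13 (1.19 and 1.17), and over all libraries it averaged 1.20 ± 0.0961 in control and 1.15 ± 0.109 in diabetic retinas, with overlap. ZT21 is shown because it had no overlap. Guca1a to Guca1b averaged 1.49 ± 0.152 (n = 30) in control and 1.41 ± 0.106 (n = 28) in diabetic retinas, and Gucy2e to Gucy2f 1.43 ± 0.221 and 1.45 ± 0.208, with genotypes that overlapped in both ratios. The size of each ratio depends on the exon lengths used, and these ratios were not tested.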
